A study of Mus musculus with 8 samples.

Results

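The genes described here are 10 markers of cancer-associated fibroblasts and pericytes: Pdgfra, Pdgfrb, Fap, Acta2, Postn, Thy1, Pdpn, Pi16, Dpt and Rgs5. They were chosen by name as a set of stromal markers, and all 10 were found among the 27179 gene rows of the count table. This choice, and that of the gene lists below, was made with earlier results of these data known. Shares of members or list genes that rose are therefore descriptions. RNA sequencing had been performed on 8 whole primary tumours, 4 from the 4T1.13-VC line (VC) and 4 from the 4T1.13-miR-21-KD line (miR-21-KD). 4T1.13 is a murine mammary carcinoma line of BALB/c origin. The cells were injected into mammary fat pads of BALB/c hosts, young adult females per the study's methods, and the tumours were recovered on day 14 after injection per the labels, whereas the methods give an earlier day. The miR-21-KD line carried the miArrest lentiviral vector, in which the H1 promoter drives an RNA that sequesters mature miR-21, together with mCherry and a hygromycin resistance gene. The VC line carried the same backbone with a scrambled RNA. The vector was therefore present in the cancer cells of both groups and not in the host cells that entered the tumours. Each line was a pool of clones. Every tumour of a group came from the same line, so other differences between the lines cannot be told apart from reduced miR-21 function. Comparing the groups asks how stromal marker levels in tumours with reduced miR-21 function in the cancer cells differed from those in control tumours. The methods place recovery, on that earlier day, at the start of regression of the miR-21-KD tumours. Levels are shares of a library, so more stroma and less cancer cell RNA cannot be told apart.

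Cancer-associated fibroblasts are the mesenchymal cells that deposit and remodel collagenous matrix around a carcinoma. They are commonly divided into contractile, matrix-producing myofibroblastic cells, marked by Acta2 and Postn, and inflammatory cells that secrete cytokines and chemokines. Pi16 and Dpt mark a resting fibroblast population found in the adventitia of many tissues. Pericytes wrap capillaries, depend on PDGF signalling through Pdgfrb and express Rgs5. In whole tumours, fewer cells of a type and less RNA per cell cannot be told apart, so each value below is a level in the tumour and not in a cell.

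miR-21 acts by base pairing of its seed, bases 2 to 8, with sites in the 3′ untranslated regions of messenger RNAs. The mature sequence, taken from RefSeq (GRCm38.p6, chr11:86584120-86584141, minus strand), is shown with its seed in capitals. Below it stand the 2 sites that matched the seed in the longest 3′ untranslated region of each member in the GENCODE annotation of the same build. The matches are shown because they were the only ones found in these regions, and capitals mark the bases paired with the seed. Other kinds of site and other parts of the messenger RNAs were not searched.
mmu-miR-21a-5p: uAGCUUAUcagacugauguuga
Postn site, chr3:54390833-54390861, plus strand: agatgattgtcATAAGCTtcttgcaatac
Rgs5 site, chr1:169694390-169694418, plus strand: caaatcaattgATAAGCTaacaagcactc
A match to the seed was thus present in 2 of the 10 members, against 2335 of 20989 genes (11.1%) with an annotated 3′ untranslated region. The search also took matches that lack base 8 but are followed by an A. The 11.1% is therefore not the share for bases 2 to 8 alone, which both sites shown match. The other 8 members held none. A match of letters is not a measured site, and the host fibroblasts and pericytes carried no vector. The Mir21a row itself was listed at 0 in all 8 tumours, and sequestration of the mature miRNA would not be read from these libraries, so the knockdown could not be checked in them.

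Library totals lay between 12134849 and 13592695 assigned counts, so a count of 3 in a tumour corresponded to 0.221 to 0.245 CPM (counts scaled to a common library size by TMM). Every member exceeded this in every tumour. The 10 members took 0.107 to 0.181% of the counts of VC tumours and 0.163 to 0.321% of those of miR-21-KD tumours. On principal component analysis, the first component (67.5% of the variance) separated the groups, and VC replicate 4 stood apart on the second (13.5%).

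Most of these stromal markers were higher in miR-21-KD tumours. By edgeR's quasi-likelihood test over 14382 genes, 8 of the 10 members rose at an adjusted p under 0.05 (19.6% of all tested genes were higher) and none fell (19.5% of all tested genes were lower). No member was lower at an unadjusted p under 0.05 either, nor by DESeq2. The members that rose were Fap, Acta2, Postn, Thy1, Pdpn, Pi16, Dpt and Rgs5, and the median log2 fold change of the 10 was 1.01, against −0.01 over all tested genes. For 6 members, Acta2, Thy1, Pdpn, Pi16, Dpt and Rgs5, each miR-21-KD tumour was above each VC tumour, as was so for 16.3% of all tested genes. The largest increases were those of Dpt (3.66-fold), Pi16 (3.13-fold) and Pdpn (2.87-fold). The count of members that rose depended on single tumours: it was 5 without VC replicate 2, 5 without VC replicate 3 and 5 without miR-21-KD replicate 1. With the last of these left out, Pdgfra was called lower. The number of all tested genes that rose also changed when a tumour was left out, with the range given in the last section. Counts of members or list genes without a tumour are therefore not to be set against the 19.6%.

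**Figure D1:**
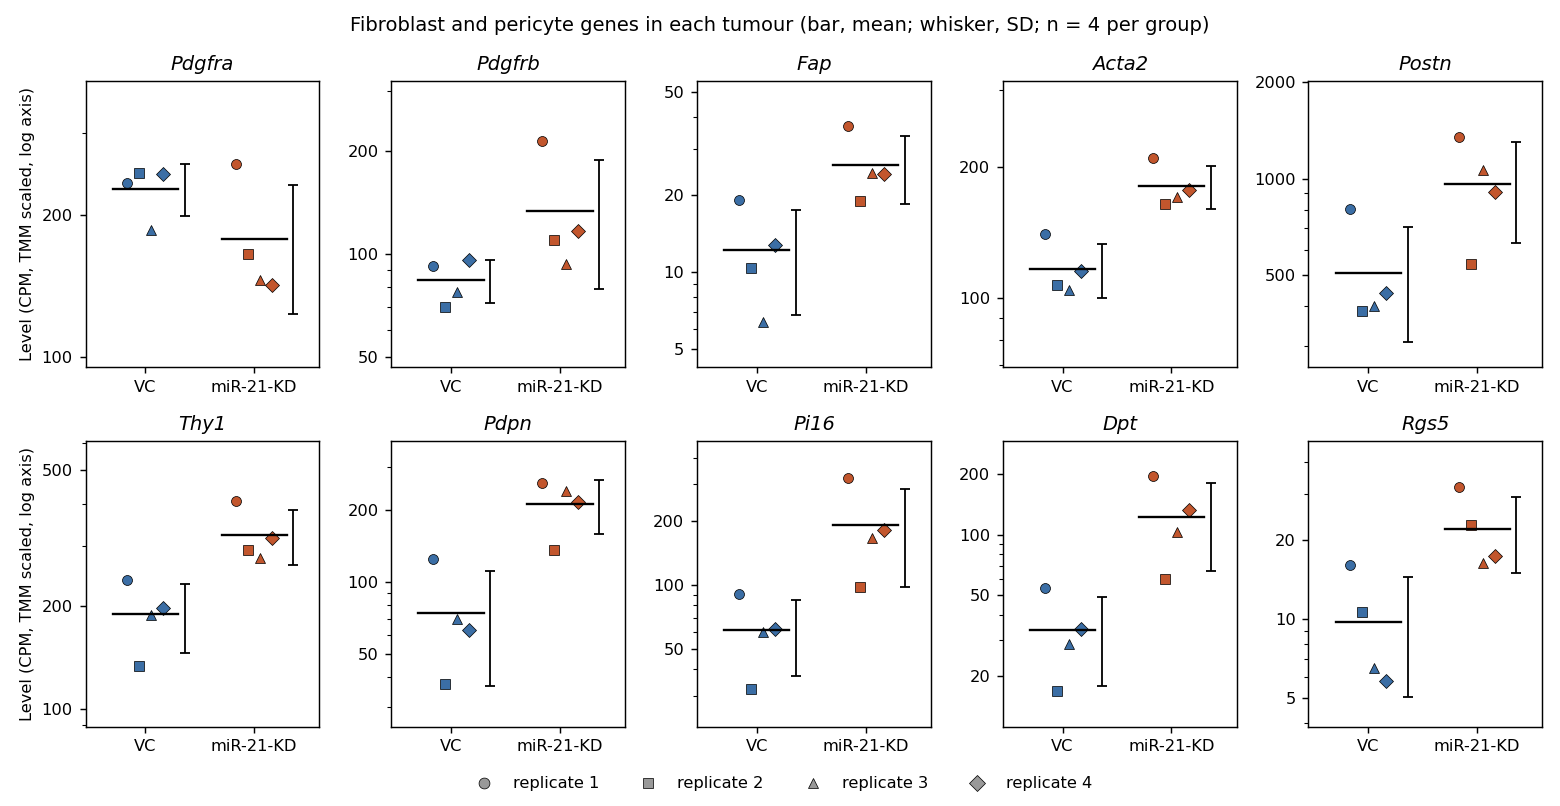
The level of each of the 10 genes in each tumour, as CPM on a log axis, with the mean as a bar and the SD as a whisker beside it (n = 4 per group); the symbol's shape gives the replicate number. All 4 miR-21-KD tumours lie above all 4 VC tumours for Acta2, Thy1, Pdpn, Pi16, Dpt and Rgs5, whereas the groups overlap for Pdgfra, Pdgfrb, Fap and Postn.

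The tumours of a group were ordered alike for many of the markers. VC replicate 1 had the highest VC level of 8 members, and miR-21-KD replicate 1 the highest miR-21-KD level of all 10. At the other end, VC replicate 2 was lowest for 6 members and miR-21-KD replicate 2 for 6 members. The summed level of the 10 genes was 1816, 1052, 1128 and 1273 CPM in the VC tumours and 3277, 1609, 2301 and 2232 CPM in the miR-21-KD tumours, so that miR-21-KD replicate 2 lay below VC replicate 1 in the sum. When replicate 1 of both groups was left out, a comparison added after the values were seen, 8 members were still called higher and 1, Pdgfra, lower.

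The PDGF receptors are the classical surface markers of fibroblasts and mural cells, and neither passed the test between the groups. Pdgfra (chromosome 5, 75152292 to 75198215, plus strand), the receptor for PDGF-AA that marks fibroblasts, was at 234, 247, 186 and 246 CPM in VC tumours and at 258, 166, 146 and 142 CPM in miR-21-KD tumours. Of the miR-21-KD tumours, 3 lay below every VC tumour, while miR-21-KD replicate 1 lay above them all. Its log2 fold change was −0.36 ± 0.20 (SE), with an adjusted p of 0.176. Without miR-21-KD replicate 1 the log2 fold change was −0.59 with an adjusted p of 0.0193. Exons of Pdgfra share 456 bases with the antisense gene Gm42802, whose reads cannot be separated where strand was not used in counting.

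Pdgfrb (chromosome 18, 61045150 to 61085061, plus strand), the receptor for PDGF-BB on pericytes and fibroblasts, was at 92.0, 69.9, 77.5 and 96.2 CPM in VC tumours. In miR-21-KD tumours it was at 214, 109, 93.2 and 117 CPM, so that 3 of the 4 were above every VC tumour and replicate 3 fell within the VC range. The log2 fold change was 0.67 ± 0.25 with an adjusted p of 0.0635. When the replicate number was added as a block, the value was 0.60 with an adjusted p of 0.0346, and without miR-21-KD replicate 3 it was 0.80 with an adjusted p of 0.0484. The test of Pdgfrb therefore lay on either side of the threshold depending on the model.

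The balance of the receptors was also examined within each tumour. The log2 ratio of Pdgfra to Pdgfrb CPM was 1.35, 1.82, 1.26 and 1.35 in VC tumours and 0.27, 0.60, 0.64 and 0.29 in miR-21-KD tumours, without overlap. The difference of the mean log2 ratios was −1.0, with an exact two-sided permutation p of 0.0286, which is the smallest that 4 against 4 tumours can give. After Benjamini-Hochberg adjustment over the 6 ratios examined, p was 0.0858, so the difference did not pass the threshold of 0.05.

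**Figure D2:**
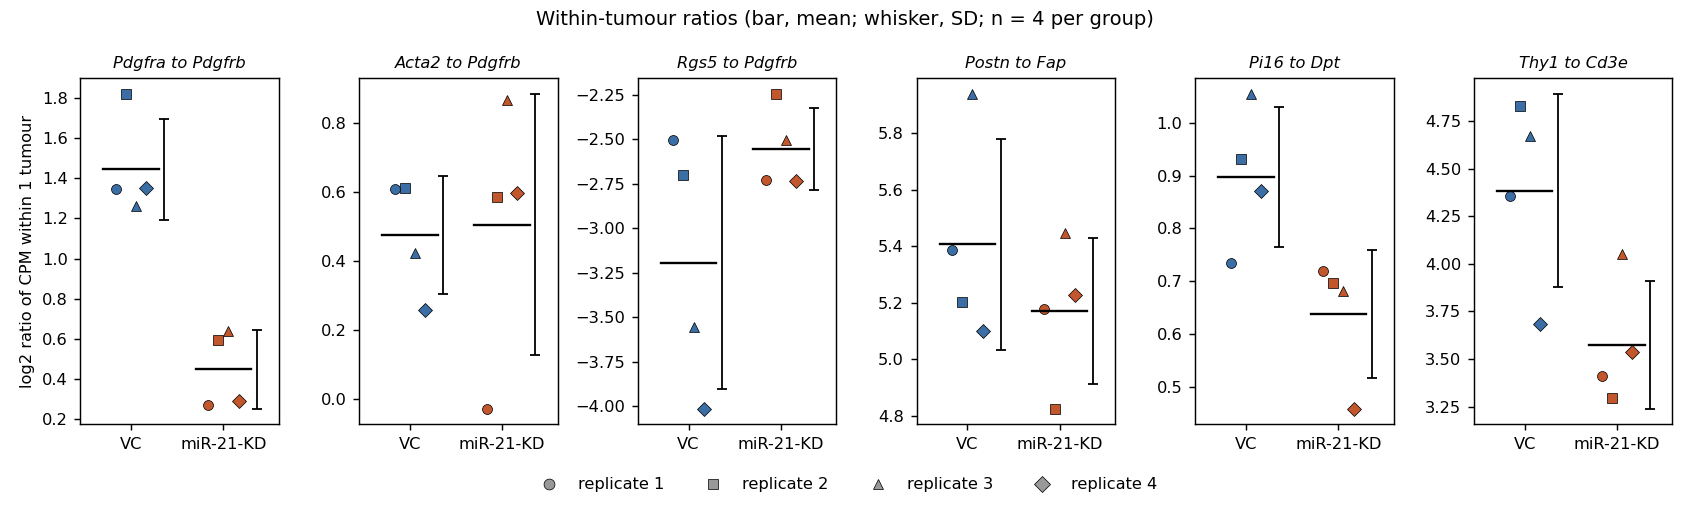
The 6 log2 ratios of CPM between pairs of genes within each tumour, with the mean as a bar and the SD as a whisker (n = 4 per group); the vertical axes differ between panels. The groups do not overlap for Pdgfra to Pdgfrb, with all miR-21-KD tumours lower, nor for Pi16 to Dpt, and they overlap for the other 4 ratios.

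Of the 4 ligands of these receptors 1 rose, a share near the 19.6% of all tested genes that rose. Pdgfc, a ligand of Pdgfra, averaged 39.8 ± 6.37 CPM (SD, n = 4) in VC against 64.9 ± 19.5 CPM in miR-21-KD tumours, with a log2 fold change of 0.70 and an adjusted p of 0.0385. With the replicate block the adjusted p of Pdgfc was 0.0695, and it exceeded 0.05 without any single VC tumour and without miR-21-KD replicate 1, 3 or 4. Pdgfa averaged 42.3 CPM in VC against 33.5 CPM in miR-21-KD tumours (adjusted p = 0.26). Pdgfb, the ligand by which endothelial cells recruit pericytes, averaged 48.1 and 37.7 CPM (adjusted p = 0.115). Pdgfd was at 2.79 and 4.41 CPM (adjusted p = 0.187, but 0.0406 with the replicate block and 0.044 without VC replicate 1).

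**Figure D3:**
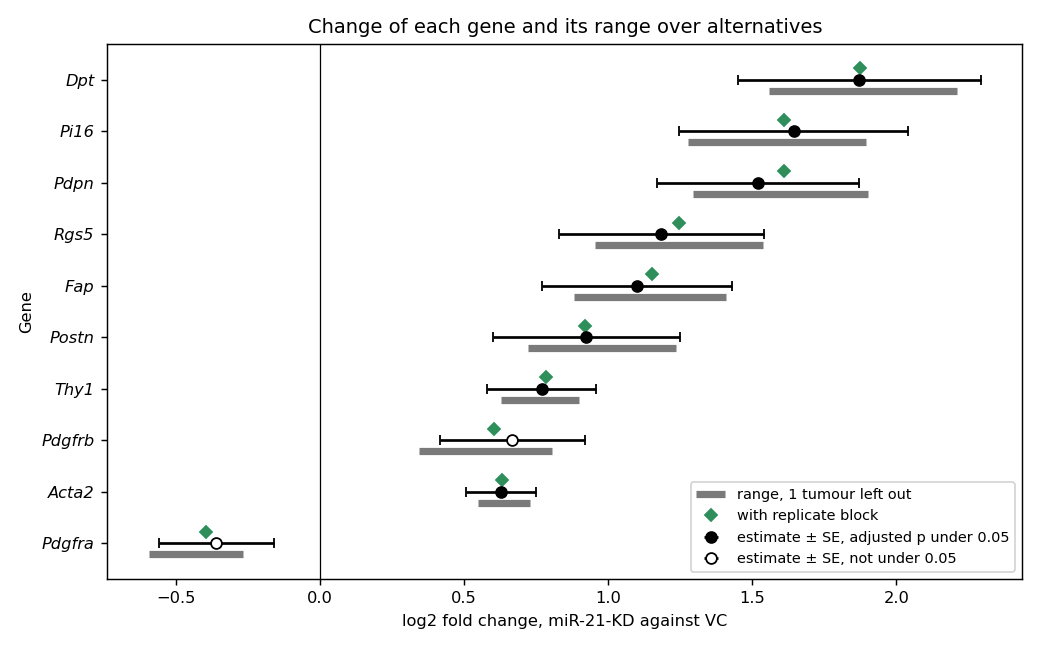
The log2 fold change of each gene between miR-21-KD and VC tumours with its SE (circles, filled where the adjusted p was under 0.05), the value with the replicate number as a block (diamonds) and the range of values when each tumour was left out in turn (grey bars). Pdgfra is the only member below 0, at −0.36, and the values run up to 1.87 for Dpt; none of the grey bars reaches 0.

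Fap and Postn are markers of activated, matrix-remodelling fibroblasts, and both rose, although less uniformly than other members. Fap (chromosome 2, 62500943 to 62574075, minus strand), a membrane-bound serine protease, was at 19.1, 10.4, 6.38 and 12.7 CPM in VC tumours and at 36.9, 18.9, 24.3 and 24.1 CPM in miR-21-KD tumours. Only miR-21-KD replicate 2 fell below the highest VC tumour, by a small margin. For Fap the log2 fold change was 1.10 ± 0.33, or 2.15-fold, with an adjusted p of 0.0298. The adjusted p lay between 0.0574 and 0.0783 without VC replicate 2, VC replicate 3 or miR-21-KD replicate 1, 3 or 4, each left out in turn.

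Postn (chromosome 3, 54361109 to 54391037, plus strand), which encodes the matricellular protein periostin, was the most abundant member. It was at 806, 387, 401 and 440 CPM in VC tumours and at 1344, 542, 1066 and 909 CPM in miR-21-KD tumours. VC replicate 1 stood well above the other VC tumours and above miR-21-KD replicate 2. Its log2 fold change was 0.92 ± 0.32, or 1.90-fold, with an adjusted p of 0.0495, and the call was lost without any 1 of VC replicates 2, 3 and 4 or miR-21-KD replicates 1, 3 and 4 (adjusted p of 0.0894 to 0.125). Without a filter on low counts it was also lost (adjusted p = 0.0643). The log2 ratio of Postn to Fap within a tumour averaged 5.41 ± 0.37 (SD) in VC against 5.17 ± 0.26 in miR-21-KD tumours, which did not differ beyond the spread between tumours (difference −0.24, exact permutation p = 0.429, adjusted p = 0.515).

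Interaction partners and processing enzymes of these proteins formed a further list. Of 13 tested genes, 4 rose and none fell, beside 19.6% of all tested genes that rose, and the count was 2 without VC replicate 2 and 1 without VC replicate 3. Itgb3, an integrin chain that binds periostin as a dimer with Itgav, rose from 106 ± 18.3 to 168 ± 32.1 CPM (adjusted p = 0.0178, but 0.0528 without VC replicate 2 and 0.0549 without VC replicate 3). Itgav was at 249 and 205 CPM (adjusted p = 0.346) and Itgb5 at 102 and 131 CPM (adjusted p = 0.19, but 0.0172 without miR-21-KD replicate 2). Tgfb1, which induces the myofibroblast programme, rose from 141 ± 5.02 to 165 CPM, a log2 fold change of 0.23 (adjusted p = 0.0288). The call of Tgfb1 was lost in 8 of 17 alternatives, among them without any 1 of VC replicates 1, 2 and 3 or miR-21-KD replicates 1, 3 and 4, with an adjusted p of up to 0.0959. Tgfb2 and Tgfb3 were at 5.03 and 169 CPM in VC against at 6.09 and 110 CPM in miR-21-KD tumours (adjusted p = 0.417 and 0.0597, the latter 0.0443 without miR-21-KD replicate 3). Bmp1, an astacin protease acting on procollagens, was at 401 and 397 CPM (adjusted p = 0.913). Prep, a prolyl endopeptidase related to Fap, was at 107 and 85.2 CPM (adjusted p = 0.0857, but 0.0447 with the replicate block and 0.00746 without miR-21-KD replicate 2).

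Acta2 (chromosome 19, 34241090 to 34255590, minus strand) encodes smooth muscle alpha-actin, the defining contractile protein of myofibroblasts, smooth muscle and some pericytes. It was at 140, 107, 104 and 115 CPM in VC tumours and at 210, 164, 170 and 176 CPM in miR-21-KD tumours. The groups were well separated, and the tumours within each group were closer together than for any other called member. Acta2 had a log2 fold change of 0.63 ± 0.12, or 1.55-fold, with an adjusted p of 0.00849, the smallest of the members and the only one under 0.01. The call held in all 17 alternatives run at the threshold of 0.05. No member was called when edgeR tested the change against a fold of 1.5, where 5 members had an unadjusted p under 0.05.

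**Figure D4:**
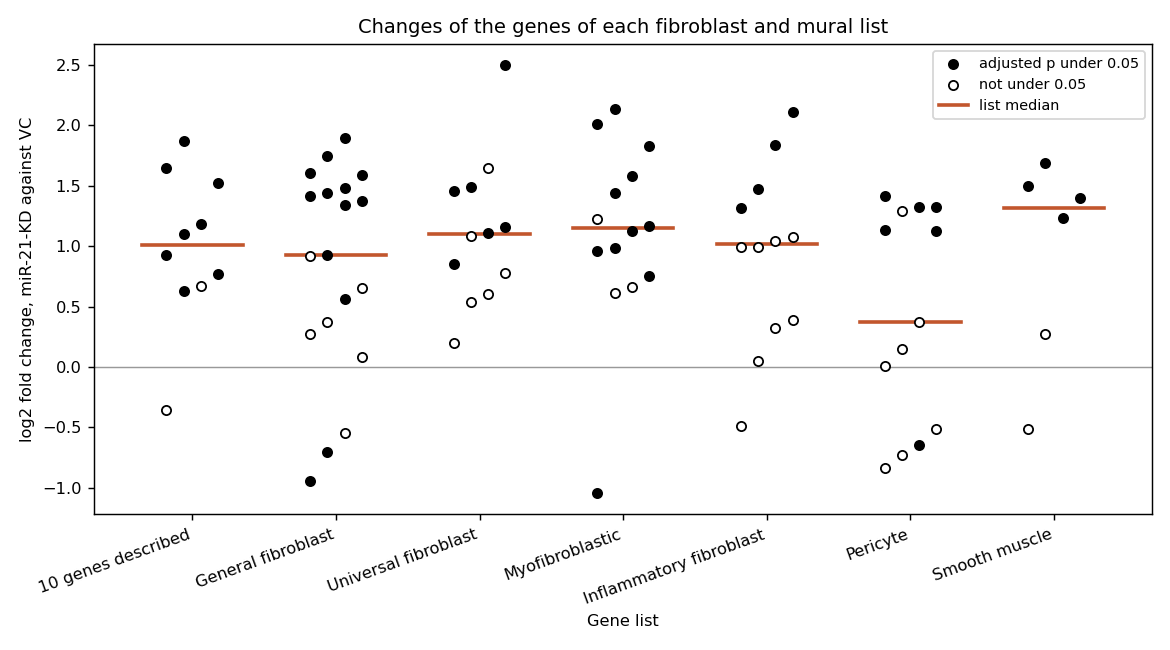
The log2 fold change of every tested gene of the 10 described and of 6 lists of fibroblast and mural genes, filled where the adjusted p was under 0.05, with the median of each list as a coloured bar. The medians lie between 0.93 and 1.32 for 5 of the lists and at 0.38 for the pericyte list, whose genes spread on both sides of 0.

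Across the 6 other lists of fibroblast and mural genes, 40 of 76 tested genes rose and 4 fell, with a median log2 fold change of 1.08, beside 19.6% of all tested genes that rose, 19.5% that fell and a median of −0.01. Without VC replicate 3 the counts were 24 and 4. In the myofibroblastic list, 10 of the 14 genes rose, 1 fell and the median was 1.15. Myl9, a regulatory myosin light chain, rose from 15.7 ± 1.64 to 31.2 ± 7.5 CPM (log2 fold change 0.99, adjusted p = 0.00693), and Loxl2, a collagen cross-linking enzyme, from 82.7 ± 33.0 to 247 ± 70.4 CPM (1.58, adjusted p = 0.00827). Thbs2, a matricellular thrombospondin, fell from 266 ± 57.2 to 129 ± 36.5 CPM (−1.04, adjusted p = 0.0104). The count of genes that rose in this list was 6 without VC replicate 2, 3 without VC replicate 3 and 6 without miR-21-KD replicate 1.

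Among smooth muscle genes, 4 of 6 tested rose and none fell, with a median of 1.32, while the summed level of the list was 158 to 205 CPM in VC against 160 to 199 CPM in miR-21-KD tumours. Smtn, the most abundant of them, averaged 153 CPM in VC against 107 CPM in miR-21-KD tumours (log2 fold change −0.51, adjusted p = 0.0805, but 0.0273 without miR-21-KD replicate 2). Myh11, the smooth muscle myosin heavy chain, rose from 13.9 ± 7.42 to 44.9 ± 16.4 CPM (adjusted p = 0.0115), Lmod1, an actin filament nucleator, from 2.61 ± 0.73 to 7.42 ± 1.66 CPM (adjusted p = 0.00701) and Synpo2 from 5.33 ± 1.86 to 12.6 ± 3.55 CPM (adjusted p = 0.0126). Of the transcription factor genes that drive such contractile genes, Mrtfa rose from 54.7 ± 1.53 to 69.1 ± 3.91 CPM (log2 fold change 0.34, adjusted p = 0.0104), whereas Srf was at 62.6 and 70.2 CPM (adjusted p = 0.179) and Mrtfb at 46.6 and 47.6 CPM (adjusted p = 0.888). Myocd, the remaining gene of the smooth muscle list, had too few counts to be tested. Myoepithelial cells of the mammary gland also express Acta2. Of 5 myoepithelial markers, 3 rose and none fell (1 rose without VC replicate 2, without VC replicate 3, and without miR-21-KD replicate 1 or 4, but 5 without VC replicate 1, without miR-21-KD replicate 2 and with the replicate block), and their summed level was 10.5 to 65.2 CPM in VC against 40.3 to 312 CPM in miR-21-KD tumours. Krt14, their basal keratin, rose from 7.10 ± 6.05 to 60.4 ± 29.8 CPM (adjusted p = 0.011). The other keratins that rose were Krt17, from 2.05 ± 1.56 to 14.3 ± 10.3 CPM (adjusted p = 0.023), and Krt5, from 11.6 ± 10.5 to 87.3 ± 60.0 CPM (adjusted p = 0.0284). The calls of both were lost without VC replicate 2 or 3 or miR-21-KD replicate 1 or 4, and that of Krt5 also without VC replicate 4 or miR-21-KD replicate 3. None of the 5 was at 0 over a group, and their part in the Acta2 increase was not tested.

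The 250 bases before the RefSeq start of Acta2 and before a RefSeq start of Postn, the member with the smallest adjusted p and the member with the highest level, are given from RefSeq (GRCm38.p6) because these genes head the contractile and matrix groups. The GENCODE span of Acta2 given above begins farther upstream than the RefSeq start, so the Acta2 window lies largely within that span. Capitals mark an MCAT element (CATTCC on either strand) 146 bases before the start in Acta2 and a TATA box (TATAAA) 26 bases before the start in Postn.
Acta2, chr19:34255374-34255623, minus strand: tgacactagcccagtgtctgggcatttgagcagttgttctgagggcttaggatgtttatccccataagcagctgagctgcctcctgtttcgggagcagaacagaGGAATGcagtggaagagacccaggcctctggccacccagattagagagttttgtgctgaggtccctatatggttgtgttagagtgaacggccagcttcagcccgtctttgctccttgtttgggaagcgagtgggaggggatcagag
Postn, chr3:54360857-54361106, plus strand: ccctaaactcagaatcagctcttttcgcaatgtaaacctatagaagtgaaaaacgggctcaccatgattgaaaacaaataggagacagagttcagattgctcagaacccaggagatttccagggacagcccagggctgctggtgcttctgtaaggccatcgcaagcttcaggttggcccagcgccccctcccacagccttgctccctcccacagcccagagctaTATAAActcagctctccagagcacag
These are descriptions of letters. Of 32851 upstream windows of this length, 12.6% held CATTCC on either strand and 12.4% held TATAAA. Of the 8 windows available for 7 members, none held the AP-1 letters TGACTCA or a strict consensus CArG box on either strand. Of all windows, 4.46% and 1.47% held them. The strict CArG search took only CC, then 6 letters that are each A or T, then GG. Near matches were not counted, and the Acta2 window holds such stretches, ccctatatgg and ccttgtttgg. The absence of a strict match therefore does not show that Acta2 lacks CArG elements.

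Thy1 (chromosome 9, 44043384 to 44048579, plus strand), a glycolipid-anchored surface protein of fibroblasts and, in mice, of T cells, was at 238, 133, 188 and 198 CPM in VC tumours and at 407, 292, 277 and 317 CPM in miR-21-KD tumours. The groups did not overlap. For Thy1 the log2 fold change was 0.77 ± 0.19, or 1.71-fold, with an adjusted p of 0.0159, and the call held in all 17 alternatives. T cell markers moved with it: 5 of 6 rose and none fell, with a summed level of 33.0 to 124 CPM in VC against 112 to 227 CPM in miR-21-KD tumours, and none was at 0 over a group. The count of T cell markers that rose was 1 without VC replicate 3, and 2 without miR-21-KD replicate 1 or 4. Cd3e, a chain of the T cell receptor complex, rose from 9.65 ± 4.73 to 27.9 ± 8.89 CPM (adjusted p = 0.0166, but 0.0525 without VC replicate 3). Cd247, another chain of that complex, rose from 4.93 ± 2.08 to 14.9 ± 4.28 CPM (adjusted p = 0.0102), and Cd3d from 7.13 ± 4.34 to 19.3 ± 4.91 CPM (adjusted p = 0.0225, but over 0.05 without VC replicate 3 or miR-21-KD replicate 1 or 4). The log2 ratio of Thy1 to Cd3e was 4.38 ± 0.51 in VC against 3.57 ± 0.33 in miR-21-KD tumours (difference −0.81, exact permutation p = 0.0571, adjusted p = 0.114). The part of T cells in the increase of Thy1 was not tested.

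Pdpn (chromosome 4, 143267431 to 143299564, minus strand), a sialylated membrane glycoprotein of fibroblasts, lymphatic endothelium and some macrophages, was at 125, 37.4, 69.7 and 63.3 CPM in VC tumours. It was at 259, 136, 239 and 215 CPM in miR-21-KD tumours, all above the VC range. This gave a log2 fold change of 1.52 ± 0.35, or 2.87-fold, with an adjusted p of 0.0134, and the call held in all 17 alternatives. The lymphatic endothelial markers did not rise: Lyve1 averaged 27.8 CPM in VC against 20.2 CPM in miR-21-KD tumours (adjusted p = 0.438), Flt4 15.3 and 10.4 CPM (adjusted p = 0.057, but 0.0407 by DESeq2, 0.0459 with library size scaling, 0.0406 without VC replicate 3 and 0.038 without miR-21-KD replicate 1), and Prox1 had too few counts to be tested. Their summed level was 24.0 to 60.9 CPM in VC against 20.4 to 48.9 CPM in miR-21-KD tumours. Clec1b, which encodes the Pdpn receptor of platelets, also had too few counts. All 6 macrophage markers rose, with a summed level of 2402 to 3638 CPM in VC against 4948 to 7802 CPM in miR-21-KD tumours, and 3 of them rose when VC replicate 3 was left out. Mrc1, the macrophage mannose receptor, rose from 1607 ± 521 to 3806 ± 853 CPM (adjusted p = 0.00928), Cd68, a lysosomal glycoprotein, from 275 ± 42.2 to 518 ± 125 CPM (adjusted p = 0.0114) and Csf1r, the receptor for macrophage colony-stimulating factor, from 454 ± 111 to 926 ± 236 CPM (adjusted p = 0.0127). The part of macrophages in the increase of Pdpn was not tested.

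Pi16 and Dpt, the markers of resting adventitial fibroblasts, both rose. The increase of Dpt was the largest of the members in the test and in all 17 alternatives, whereas that of Pdpn exceeded that of Pi16 without VC replicate 1, without miR-21-KD replicate 1, without both, and by limma-voom with and without quality weights. Pi16 (chromosome 17, 29317680 to 29330593, plus strand), a secreted peptidase inhibitor, was at 90.7, 32.1, 60.1 and 62.2 CPM in VC tumours and at 321, 97.4, 166 and 182 CPM in miR-21-KD tumours. The lowest miR-21-KD tumour was just above the highest VC tumour. Its log2 fold change was 1.64 ± 0.40, or 3.13-fold, with an adjusted p of 0.0152. Exons of Pi16 share 222 bases with an annotated antisense gene.

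Dpt (chromosome 1, 164796644 to 164824266, plus strand), a matrix protein that binds decorin and collagen, was at 54.4, 16.8, 28.8 and 33.9 CPM in VC tumours. It was at 195, 60.1, 104 and 132 CPM in miR-21-KD tumours, again without overlap and again with replicate 1 highest and replicate 2 lowest in each group. The log2 fold change was 1.87 ± 0.42, or 3.66-fold, with an adjusted p of 0.0126. The calls of Pi16 and Dpt held in all 17 alternatives. Within each tumour, the log2 ratio of Pi16 to Dpt was 0.90 ± 0.13 in VC against 0.64 ± 0.12 in miR-21-KD tumours, without overlap (difference −0.26, exact permutation p = 0.0286, adjusted p = 0.0858).

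The list of genes of this resting population held 12 other genes, of which 6 rose and none fell, with a median log2 fold change of 1.10. With the replicate block 10 of the 12 rose and without miR-21-KD replicate 2 there were 11, whereas 4 rose without VC replicate 3 and without miR-21-KD replicate 1 or 4. Fbln2, a basement membrane fibulin, rose from 445 ± 98.3 to 961 ± 125 CPM (adjusted p = 0.00585), Igfbp6, a binding protein of insulin-like growth factors, from 17.3 ± 2.37 to 47.4 ± 15.6 CPM (adjusted p = 0.00694), and Ackr3, a scavenging chemokine receptor, from 64.4 ± 11.9 to 117 ± 18 CPM (adjusted p = 0.007). The mammary fat pad holds adipose tissue, and all 6 adipocyte markers rose, with a median log2 fold change of 2.66. The summed level of these markers was 326, 87.3, 119 and 173 CPM in VC against 737, 441, 641 and 1177 CPM in miR-21-KD tumours. Plin1, which coats lipid droplets, rose from 3.50 ± 2.18 to 28.0 ± 15.5 CPM (adjusted p = 0.00719), Lep, encoding leptin, from 2.56 ± 1.76 to 17.2 ± 6.03 CPM (adjusted p = 0.0068) and Retn, encoding resistin, from 3.87 ± 2.12 to 28.4 ± 17.4 CPM (adjusted p = 0.00735). The part of adjoining fat pad tissue in the increases of Pi16 and Dpt was not tested.

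Rgs5 (chromosome 1, 169655501 to 169695813, plus strand), a regulator of G protein signalling that marks pericytes, was the least abundant member. It was at 16.1, 10.6, 6.46 and 5.80 CPM in VC tumours and at 32.1, 23.0, 16.3 and 17.4 CPM in miR-21-KD tumours. The groups did not overlap, but the lowest miR-21-KD tumour and VC replicate 1 were nearly equal. The log2 fold change was 1.18 ± 0.36, or 2.27-fold, with an adjusted p of 0.0301. The call was lost without VC replicate 2 (adjusted p = 0.0644), VC replicate 3 (0.0814), VC replicate 4 (0.0535) or miR-21-KD replicate 1 (0.0778). The log2 ratios of Rgs5 to Pdgfrb (−3.19 ± 0.71 in VC, −2.55 ± 0.23 in miR-21-KD tumours, exact permutation p = 0.229) and of Acta2 to Pdgfrb (0.47 ± 0.17 and 0.51 ± 0.38, exact permutation p = 1) overlapped between the groups, with adjusted p of 0.344 and 1.

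Other pericyte genes were measured beside Rgs5. Of the 13 listed 5 rose and 1 fell, the median log2 fold change was 0.38, and the summed level was 309 to 451 CPM in VC against 309 to 443 CPM in miR-21-KD tumours. Cspg4, the NG2 proteoglycan, rose from 6.05 ± 1.46 to 16.1 ± 4.80 CPM (adjusted p = 0.0082), Ndufa4l2 from 14.9 ± 4.16 to 32.6 ± 6.71 CPM (adjusted p = 0.00922) and Des, the intermediate filament desmin, from 13.4 ± 5.73 to 33.4 ± 7.0 CPM (adjusted p = 0.012). Mcam was the gene that fell, and that call was lost without miR-21-KD replicate 3 or 4. Rgs16, a relative of Rgs5, rose from 31.9 ± 3.99 to 51.1 ± 11.9 CPM (adjusted p = 0.0154, but 0.0507 without VC replicate 3), and Rgs4 was at 8.35 and 12.2 CPM (adjusted p = 0.117). Of the 6 endothelial markers, the cells that pericytes cover, 1, Tek, rose and none fell, with a median of −0.01 and a summed level of 362 to 639 CPM in VC against 526 to 746 CPM in miR-21-KD tumours. Tek, an angiopoietin receptor, rose from 11 ± 5.69 to 23.6 ± 7.27 CPM (adjusted p = 0.0378), but was not called without any 1 of VC replicates 2, 3 and 4 or miR-21-KD replicates 1, 3 and 4. Pecam1 was at 297 and 385 CPM (adjusted p = 0.124, but 0.0391 without VC replicate 1) and Emcn at 50.5 and 39.5 CPM (adjusted p = 0.108, but 0.0256 with the replicate block and 0.0491 without VC replicate 3).

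**Figure D5:**
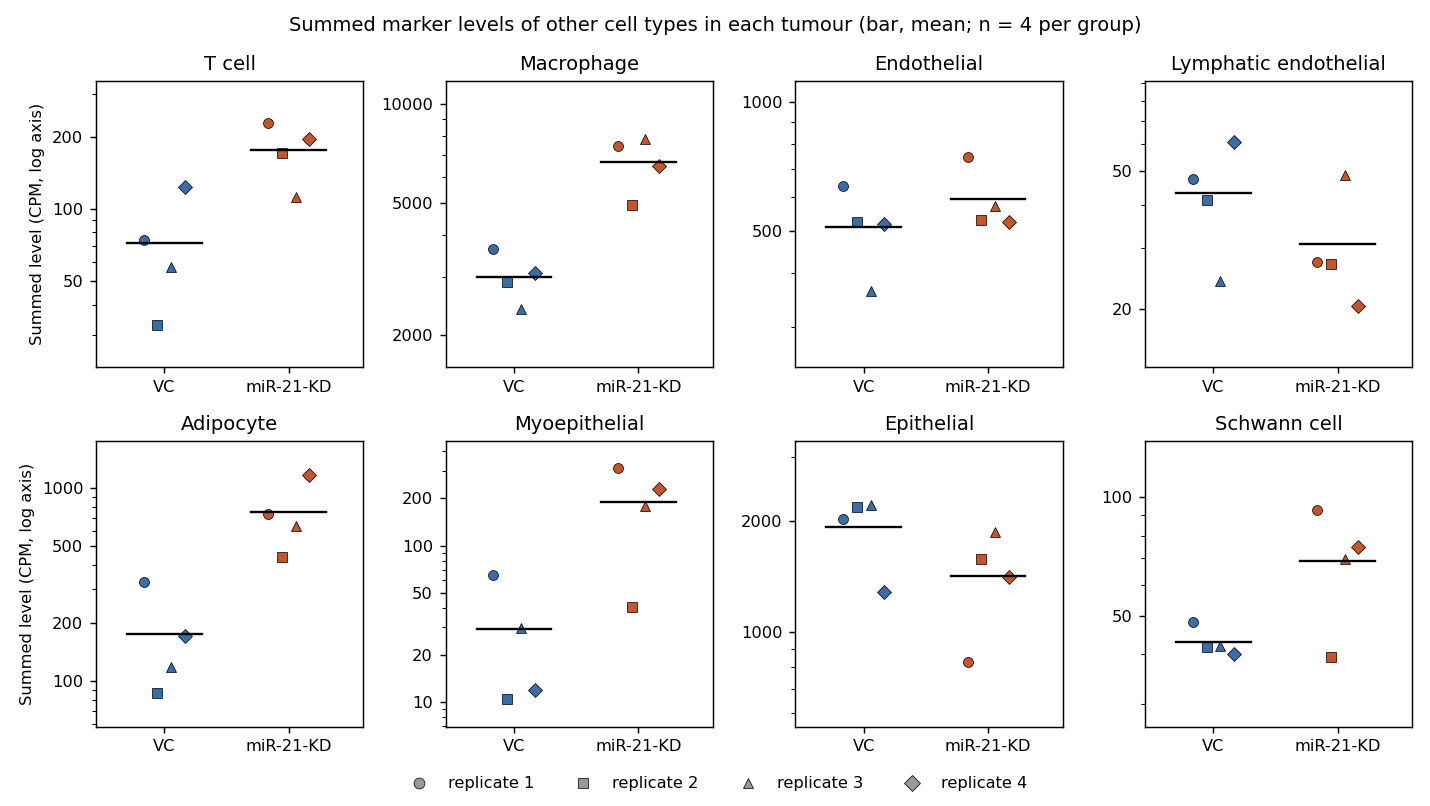
The summed level of marker lists of other cell types in each tumour, as CPM on a log axis, with the mean as a bar (n = 4 per group). The macrophage and adipocyte sums are higher in every miR-21-KD tumour than in any VC tumour, at 441 to 1177 against 87.3 to 326 CPM for adipocytes, and the other 6 sums shown overlap between the groups.

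Of the remaining marker lists, 4 of 6 epithelial markers rose and 1, Krt18, fell, with a summed level of 1284 to 2210 CPM in VC against 827 to 1869 CPM in miR-21-KD tumours. Without VC replicate 2 or VC replicate 3, 2 epithelial markers rose, and Krt18 was not called without any 1 of VC replicates 1, 2 and 3 or miR-21-KD replicates 3 and 4. The sixth, Krt8, had a log2 fold change of −0.88 (adjusted p = 0.087, but 0.0413 with the replicate block, 0.0405 by DESeq2 and 0.0432 without miR-21-KD replicate 2). Krt19 rose from 21.6 ± 16.9 to 263 ± 142 CPM (log2 fold change 3.60, adjusted p = 0.00688), Epcam, an epithelial adhesion molecule, from 25.6 ± 17.1 to 97.6 ± 39.3 CPM (adjusted p = 0.0182, but 0.0526 without VC replicate 3) and Cdh1, encoding E-cadherin, from 43.2 ± 24.4 to 124 ± 25.9 CPM (adjusted p = 0.0185, but 0.0536 without VC replicate 2). Sox10 was the Schwann cell marker that rose, of 4, from 4.34 ± 3.01 to 18.5 ± 10.4 CPM (adjusted p = 0.0363), and that call was lost without any 1 of VC replicates 2, 3 and 4 or miR-21-KD replicates 1, 3 and 4. Mbp was at 35.7 and 44.0 CPM (adjusted p = 0.17, but 0.0265 without miR-21-KD replicate 2). Pf4, which macrophages and platelets express, rose from 110 ± 12.5 to 341 ± 125 CPM (adjusted p = 0.00571), the other tested platelet marker, Itga2b, was at 6.57 and 9.08 CPM (adjusted p = 0.06, and 0.0225 by DESeq2), and the summed level of the platelet list was 104 to 135 CPM in VC against 220 to 485 CPM in miR-21-KD tumours, without overlap. Myh1, a skeletal muscle myosin, fell from 4.98 ± 1.77 to 0.89 ± 1.00 CPM (adjusted p = 0.0209, but over 0.05 without VC replicate 3 or miR-21-KD replicate 1 or 3), while Mylpf was at 1.03 and 1.38 CPM (adjusted p = 0.34) and the other 4 muscle markers had too few counts to be tested.

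General fibroblast genes, mostly of the collagenous matrix, rose in 11 of 19 tested cases and fell in 2, with a median log2 fold change of 0.93. Without VC replicate 3, 6 rose. Fn1, encoding fibronectin, which carcinoma cells and macrophages also make, rose from 2688 ± 696 to 9016 ± 2710 CPM (log2 fold change 1.75, adjusted p = 0.00585) and Col6a3 from 349 ± 79.8 to 663 ± 147 CPM (0.93, adjusted p = 0.0115). Pcolce, an enhancer of procollagen processing, fell from 402 ± 52.9 to 247 ± 26.4 CPM (−0.70, adjusted p = 0.0068). The other gene that fell was Twist1, and Tcf21 had no count in any tumour. Of 12 inflammatory fibroblast genes 4 rose and none fell, with a median of 1.02, and 7 rose without VC replicate 1. C3, a complement component, rose from 1618 ± 337 to 4028 ± 1256 CPM (adjusted p = 0.00799), Igf1 from 49.0 ± 15.8 to 136 ± 52.6 CPM (adjusted p = 0.0119) and Cxcl12, a chemokine for lymphocytes, from 92.3 ± 59.4 to 398 ± 232 CPM (adjusted p = 0.0152). Macrophages also express C3 and Igf1.

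Levels were compared between genes per length, as RPKM (CPM divided by the kilobases of exon, over the exons of protein-coding transcripts). In VC tumours Postn was highest at 155 ± 60.6 (SD, n = 4), followed by Thy1 at 101 ± 23.0, Acta2 at 57.3 ± 8.15, Pdpn at 40.7 ± 20.3, Pdgfra at 26 ± 3.28, Dpt at 19.4 ± 9.11, Pdgfrb at 15.3 ± 2.24, Pi16 at 10.8 ± 4.22, Fap at 4.41 ± 1.93 and Rgs5 at 2.14 ± 1.04 RPKM. The ranges of neighbours in this order overlapped over the 4 tumours, except for Thy1 and Acta2. In miR-21-KD tumours the order was Postn (293 ± 102), Thy1 (172 ± 31.0), Pdpn (117 ± 29.6), Acta2 (88.6 ± 10.0), Dpt (71.2 ± 32.8), Pi16 (33.8 ± 16.5), Pdgfrb (24.3 ± 9.98), Pdgfra (20.3 ± 6.21), Fap (9.47 ± 2.78) and Rgs5 (4.88 ± 1.59 RPKM). Here the ranges of neighbours overlapped except for Thy1 and Pdpn and for Pdgfra and Fap. Pdgfra thus went from the fifth to the eighth place of the per-length levels, while Pi16 went from the eighth to the sixth.

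The spread between tumours of a group also differed among the members. The coefficient of variation of the CPM in VC tumours was 12.6% for Pdgfra, 14.2% for Acta2 and 14.6% for Pdgfrb, and 39.1 to 49.9% for Pi16, Postn, Fap, Dpt, Rgs5 and Pdpn. In miR-21-KD tumours it was lowest for Acta2 at 11.3% and highest for Pi16 at 48.9%. Between the highest and the lowest miR-21-KD tumour, Pi16 and Dpt differed 3.29-fold and 3.24-fold, close to the size of their change between the groups. Part of this spread went with the replicate number. With that number as a block in edgeR, the log2 fold change of Pi16 was 1.61 ± 0.09 (SE, adjusted p = 0.00132). That of Dpt was 1.87 ± 0.07 (adjusted p = 0.000879). What a replicate number shares is not stated in the labels.

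The pattern of each member over the 8 tumours was compared with that of 13017 other genes by the root mean square distance of log2 CPM centred per gene, as a description without a test. The members closest to each other were Pi16 and Dpt (0.17) and Acta2 and Thy1 (0.18), while Pdgfra was farthest from the rest, with Pdgfrb nearest at 0.54. Over all genes, Serpinf1, which encodes pigment epithelium-derived factor, was nearest to Dpt (0.10) and second nearest to Pi16 (0.15), behind Cped1 (0.14). Acta2 lay nearest to Ptbp3 and Fyn (both 0.07), Thy1 to Tfpi (0.10) and Gramd3 (0.11), Pdpn to Rasgrf2 (0.11) and Rian (0.12), and Pdgfrb to Ebf4 (0.10) and Tsga10 (0.11). The nearest genes were Sorbs2 (0.13) and Mctp1 (0.15) for Postn, Nhsl2 (0.15) and Cdyl2 (0.16) for Fap, Poglut3 and Mbd5 (both 0.14) for Pdgfra and Hivep3 (0.21) for Rgs5, for which 1 nearer row (0.12) carried no gene name. All these distances share the same 8 libraries.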

How the data were processed

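Total RNA from 8 whole tumours, 4 per group, had been sequenced. The authors deposited 1 table of raw counts per Entrez gene, made, per the labels, with Subread and featureCounts on mm10; versions, annotation and strand setting are not given in the sources used here, so reads of overlapping genes on opposite strands may not be separated. Gene symbols were matched for 25275 of 27179 identifiers. Samples were grouped by their titles, which number the tumours of each group without naming the mice, so p-values measure the spread between these samples.

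Genes were filtered with filterByExpr (14382 kept, holding 99.9% of counts), scaled by TMM and tested with edgeR 4.0.16 (R 4.3.3) by the robust quasi-likelihood test with Benjamini-Hochberg adjustment at 0.05; the procedure was tested on simulated counts. Fold changes are miR-21-KD over VC. Alternatives used DESeq2 1.42.0, limma 3.58.1, other scalings and filters, a replicate block, a 1.5-fold threshold, an adjusted p of 0.01 and leaving out each tumour. The 6 log2 ratios, with a prior count of 2, were compared by exact two-sided permutation. RPKM used exon lengths of protein-coding transcripts in GENCODE. Seeds and motifs were matched as letters.

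The members and gene lists were chosen with earlier results of these data known. Members were described in full, with all ligands and partners and the 3 genes of smallest adjusted p of each other list. The rule also took the 2 genes nearest to each member with an average log2 CPM of at least 1. Twist1, Mcam, Tcf21, Myocd, Smtn, Krt8 and Krt18 were named after their values were seen. One gene that this rule selects is not reported here. Whether replicate numbers pair the tumours was checked from residual correlations: same-numbered tumours had r of 0.27, 0.42, 0.18 and 0.38, all above 0.1, while other pairs ranged from −0.39 to 0.39 (mean −0.10). The labels state no shared source. The main tests carry no block, and blocked values are given where they change the call of a gene named here or move the count of a fibroblast or mural list by over 1.5 times.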

Additional observations from a re-analysis of the deposited data

Results flagged for a closer look

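Of 32 groups of 4 values examined for a sample far from the others, by Dixon's criterion at 95%, 3 held one, and chance gives about 1 in 20. Postn was at 806 CPM in VC replicate 1, whereas the other VC tumours lay between 387 and 440 CPM. The log2 ratio of Pdgfra to Pdgfrb was 1.82 in VC replicate 2, against 1.26 to 1.35 in the other VC tumours. The log2 ratio of Pi16 to Dpt was 0.46 in miR-21-KD replicate 4, against 0.68 to 0.72 in the other miR-21-KD tumours. The causes of these values were not tested.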

How the results depend on the processing

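Over 17 alternatives run at the threshold of 0.05 for each of the 10 members, 170 values in all, no log2 fold change changed sign, 147 stayed on the same side of the threshold, 16 lost the call and 7 gained it. Of all genes, 5626 were called (2826 higher, 2800 lower; 7298 had an unadjusted p under 0.05). Against a fold of 1.5, 542 genes (334 higher, 208 lower) and 0 members were called by edgeR, although 5 members had an unadjusted p under 0.05 in that test, and at an adjusted p under 0.01, 1426 genes (670 higher, 756 lower) and 1 member. Leaving out each tumour gave 2936 to 6840 genes (1449 to 3290 higher, 1487 to 3550 lower), 5 to 8 members in all and 5 to 8 higher, 0 to 1 lower, and for the other fibroblast and mural lists 28 to 53 genes, of which 24 to 49 higher. Without replicate 1 of both groups, an alternative chosen after seeing the data, 3692 genes were called, 1634 of them lower, and 1 member lower. With limma-voom quality weights 1 member, Pdgfra, was called lower (adjusted p = 0.0397) and Pdgfrb higher (0.0482), and DESeq2 called Pdgfrb higher (0.0269). The replicate block changed the call of Pdgfrb and of no other member, and gave 9 members higher. The difference between the groups in the log2 ratio of Acta2 to Pdgfrb, 0.03, was −0.04 without VC replicate 4, −0.09 without miR-21-KD replicate 3 and −4e-04 without miR-21-KD replicate 4, and ranged from −0.09 to 0.21. The paired exact test of the ratios, with 4 pairs, cannot go below 0.125. The causes of these shifts were not tested, and fewer tumours were fitted where a tumour was left out. Precision is limited by 4 tumours per group more than by depth for the members, the least abundant of which was at 5.80 CPM or more.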
